A study of Rattus norvegicus with 250 samples.

Results

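Expression of the corticosteroid receptors and of 2 genes that corticosteroids induce was described in the hippocampus of 245 adult F2 rats, the grandchildren of crosses between a bred High Responder line (bHR), selected for much exploratory locomotion, and a bred Low Responder line (bLR), selected for little. The genes were taken by Ensembl identifier: ENSRNOG00000014096 (listed as Nr3c1), ENSRNOG00000034007 (listed as Nr3c2), ENSRNOG00000022523 (listed as Fkbp5) and ENSRNOG00000011815 (Sgk1). All 4 of these 4 identifiers were among the 32883 of the count table and among the 19448 genes tested. Only the pairing of Sgk1 with its identifier is given in the gene annotation used here, so the other genes are named by identifier, and what is said of their function holds if the listing is right.

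Corticosterone, the main glucocorticoid of the rat, acts in the hippocampus through the mineralocorticoid receptor (encoded by Nr3c2), which binds it with high affinity, and the glucocorticoid receptor (encoded by Nr3c1), which is occupied mainly when hormone levels rise with stress or at the daily peak. Activated receptors enter the nucleus and change transcription of target genes. Fkbp5 encodes a co-chaperone that lowers the affinity of the glucocorticoid receptor for hormone and is itself induced by it, a short negative feedback. Sgk1 encodes a serum- and glucocorticoid-regulated kinase that responds within hours to stress, and in white matter it is expressed by oligodendrocytes.

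The 122 males and 123 females came from 12 families and died at 113 to 132 days of age on 9 dates in December 2013, the males from 4 to 11 December and the females from 13 to 18 December, by decapitation without anesthesia. Punches of the dorsal and ventral hippocampus of 1 side were pooled for each rat, so that each library is a mixture of cell types, and fewer cells of a type cannot be told apart from less RNA per cell. A Pavlovian Conditioned Approach (PavCA) score was recorded for 208 trained rats, in which a lever predicted food, and for none of the 37 untrained rats. Another 5 libraries carried a failed-QC label and were left out. Library totals ranged from 17.9 to 31.5 M reads, with a median of 21.6 M, and no pair of libraries held identical counts. Neuronal markers were high in all libraries (Slc17a7, the vesicular glutamate transporter of hippocampal principal cells, from 547 to 2477 CPM, the read count scaled to the total of its library). Markers of neighboring tissue varied more: Tcf7l2, a thalamic marker, ranged from 2.37 to 71.5 CPM and Folr1, of the choroid plexus, from 0.211 to 94.7 CPM.

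The corticosteroid receptors bind short DNA elements, of which the half-site is AGAACA, or TGTTCT on the other strand. In RefSeq promoter windows (GRCr8, from 250 bases before to 50 bases after the annotated start), 20.7% of 33469 windows held a half-site on either strand, and 5 held AGAACA, 3 bases of any kind and then TGTTCT. A half-site was not among the letters of the 3 windows of Sgk1, the 2 of Nr3c1 or the 1 of Fkbp5, and no window of Nr3c2 was used. Among the 5 paired genes of a list of corticosteroid targets described further on, Cdkn1c had no window. Of the others only Sult1a1 held a half-site, 89 bases before its start. It is printed because Sult1a1 covaried with Sgk1 and with ENSRNOG00000022523, with the half-site in capitals (GRCr8, chr1:190706184-190706213, minus strand, 5′ to 3′).
Sult1a1 promoter: ttttgtttctggAGAACAgccagtcctagc
A match of letters is not evidence of binding.

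All 4 genes were expressed in every rat. The library with the fewest reads of each still held 1179 reads of ENSRNOG00000014096, 310 of ENSRNOG00000034007, 522 of ENSRNOG00000022523 and 674 of Sgk1, so counting error was small beside the spread between rats. ENSRNOG00000014096, listed as the glucocorticoid receptor, was the steadiest, with a lowest, median and highest level of 66.7, 91.3 and 112 CPM (SD of log2 CPM 0.14, n = 245). ENSRNOG00000034007, listed as the mineralocorticoid receptor, varied most (15.5, 53.3 and 109 CPM, SD of log2 CPM 0.58). ENSRNOG00000022523, listed as Fkbp5, lay at 35.7, 82.1 and 140.0 CPM (SD of log2 CPM 0.36), and Sgk1 at 37.5, 70.9 and 172 CPM (SD of log2 CPM 0.38).

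The composition of the RNA followed the levels of ENSRNOG00000034007 and ENSRNOG00000022523 closely. Before adjustment, their log2 CPM rose with the intergenic percentage of reads with r = 0.834 and 0.832, and fell with the ribosomal percentage with r = -0.799 and -0.803 (n = 245, permutation test, two-sided, p = 1e-05 each, the smallest that 100000 resamples can give, adjusted p = 1.1e-05 over 8 relations). Spearman's rho was 0.853 and 0.871 with the intergenic percentage and -0.843 and -0.822 with the ribosomal percentage, with the same permutation p. Without the 2 farthest rats r was 0.839 and 0.851 for the intergenic percentage, and within the 3 sequencing batches it was at least 0.759 and 0.756. The relations of ENSRNOG00000014096 (r = 0.43) and Sgk1 (r = 0.308) with the intergenic percentage were smaller. Together the ribosomal and intergenic percentages accounted for 75.3% of the variance of log2 CPM of ENSRNOG00000034007 and 75.4% of that of ENSRNOG00000022523, against 18.8% for ENSRNOG00000014096 and 9.68% for Sgk1. Unless said otherwise both percentages were covariates, as in the study's own model, beside sex, dissector, PavCA experience and sequencing batch, and values called adjusted below are what is left after these terms.

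Sgk1 differed between dates of death, and the other 3 genes did not pass the test. Among males Sgk1 was at 57.6, 59.3 and 63.5 CPM in the 3 rats of 4 December, and its lowest, median and highest levels were 52.8, 64.2 and 101 CPM on 5 December (n = 10) and 57.8, 64.6 and 112 CPM on 6 December (n = 9). These were the dates with the lowest male medians, although the mean on 6 December, 76.9 CPM, was above the means of 10 and 11 December (74.2 and 75.5 CPM). On 9 December it lay at 40.8, 77.6 and 133 CPM (n = 17), on 10 December at 42.1, 69.4 and 116 CPM (n = 28) and on 11 December at 37.5, 70.3 and 162 CPM (n = 55). The later male dates had higher medians, and their ranges overlapped those of the earlier dates. Among females the 9 rats of 13 December were highest (69.4, 88.9 and 109 CPM), followed by 17 December (42.9, 78.7 and 140 CPM, n = 57) and 18 December (39.4, 67.5 and 172 CPM, n = 57). The moderated F test over the dates, with sex and the other covariates in the model, gave F = 3.63 and an adjusted p of 0.00654 for Sgk1 (limma-voom, Benjamini-Hochberg over all genes), in a comparison in which 39.7% of all genes were called at a false discovery rate (FDR) of 0.10. Adjusted p was 0.529 for ENSRNOG00000014096, 0.228 for ENSRNOG00000034007 and 0.373 for ENSRNOG00000022523.

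**Figure D1:**
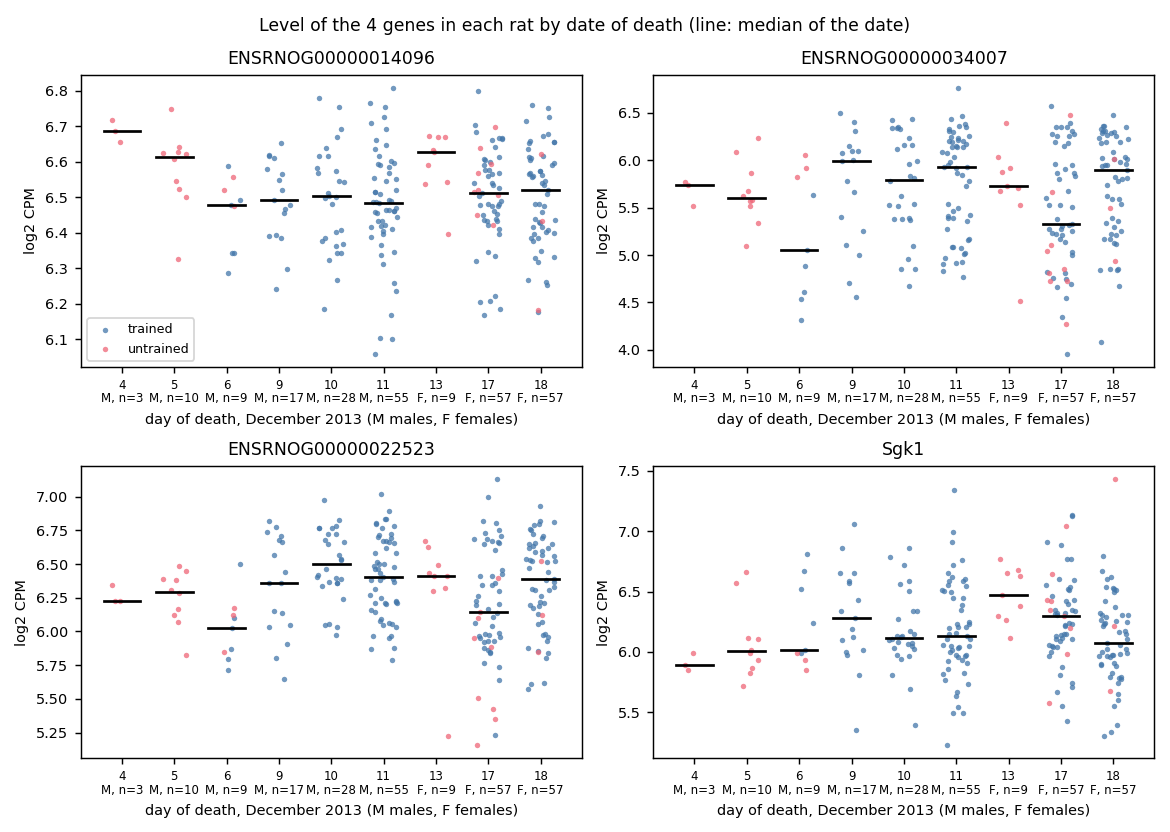
Level of each gene in each of 245 rats (log2 CPM, vertical axis) by day of death in December 2013 (horizontal axis, M males and F females), with blue points for trained and red points for untrained rats and a line at the median of the date. Sgk1 was highest on 13 December, and 1 untrained rat of 18 December had its highest value, 172 CPM.

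The call for Sgk1 depended on the last female date. Without the 57 rats of 18 December its adjusted p was 0.295, and with any other date left out it was between 0.00464 and 0.0177. With family added to the model it was 0.0203, and with the males alone 0.0308, while with the females alone it was 0.109. Within sequencing batches 1, 2 and 3 alone it was 0.419, 0.176 and 0.347. Between the 2 large female dates, chosen after the medians were seen, the model placed 17 December above 18 December by 0.24 ± 0.07 (log2, SE), unadjusted p = 0.000614, adjusted p = 0.292, where 0.0154% of genes were called. In the same contrast Plekhf1, Arrdc3 and Sult1a1, which belong to the corticosteroid targets, were higher by 0.15 ± 0.06, 0.12 ± 0.04 and 0.11 ± 0.05 (adjusted p = 0.486, 0.296 and 0.622). The remaining paired targets, Cdkn1c and Klf9, were at 0.14 ± 0.11 and 0.043 ± 0.032 (adjusted p = 0.817 and 0.813), and none of the paired targets passed. Between 10 and 11 December, the large male dates, ENSRNOG00000034007 was higher on 11 December by 0.18 ± 0.06 (adjusted p = 0.0394, with 22.4% of genes called) and Sgk1 differed by 0.059 ± 0.082 (adjusted p = 0.69). Date of death goes with age, family and training in these rats, and their parts in these differences cannot be told apart. The hour of death was not used here.

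Training was the next question, since PavCA sessions add handling, food reward and repeated testing. Of the 4 genes, 0 passed the test between trained and untrained rats, against 9.07% of all genes. ENSRNOG00000034007 lay at 15.5, 55.6 and 109 CPM in trained rats (n = 208) and at 19.3, 50.7 and 88.8 CPM in untrained rats (n = 37), and its adjusted difference was -0.16 ± 0.06 (trained minus untrained, log2, SE, adjusted p = 0.113). The raw medians and the adjusted difference thus pointed opposite ways, and with sex as the only covariate the difference was 0.12. ENSRNOG00000022523 lay at 37.5, 83.5 and 140.0 CPM in trained and at 35.7, 74.7 and 102 CPM in untrained rats, with an adjusted difference of 0.087 ± 0.039 (adjusted p = 0.193). The adjusted difference was -0.052 ± 0.025 for ENSRNOG00000014096 (adjusted p = 0.224) and -0.076 ± 0.081 for Sgk1 (adjusted p = 0.671). At an unadjusted p under 0.05, 3 of the 4 genes passed, all but Sgk1, as did 3717 of all 19448 genes. The quasi-likelihood test of edgeR called 1 of the 4 genes and 1737 of all 19448, and the DESeq2 Wald test called 2 of the 4 and 2051 of the 14546 genes it tested. The ranges of trained and untrained rats overlapped for ENSRNOG00000034007 and ENSRNOG00000022523.

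Trained and untrained rats died on the same date only on 6, 17 and 18 December, and with date of death in the model ENSRNOG00000022523 passed the test. It was higher in trained rats by 0.14 ± 0.05 (95% interval 0.045 to 0.25, adjusted p = 0.064, limma-voom), where 12.5% of all genes were called. On 17 December it lay at 37.5, 74.4 and 140.0 CPM in 48 trained females and at 35.7, 59.2 and 84.1 CPM in 9 untrained females. On 18 December it lay at 47.7, 85.4 and 122 CPM in 54 trained females, against 57.5, 69.6 and 91.8 CPM in the 3 untrained ones. On 6 December the order of the medians was the other way, with 52.4, 61.7 and 90.6 CPM in 6 trained males and 57.6, 69.8 and 72.1 CPM in the 3 untrained ones. The call was lost when 1 of 3 untrained females of 17 December was left out (replicates 23, 60 and 115), with a difference of 0.10, 0.13 and 0.11 and an unadjusted p of 0.0506, 0.0151 and 0.0285, above the cutoff of 0.0125. It was also lost with family added (0.21, adjusted p = 0.295) and in the females of the 2 shared dates alone (0.19, adjusted p = 0.675), although the difference was then larger. The 3 untrained females of 18 December were all of family 11. On the 2 female dates families 11 and 12 held most of the untrained rats, 6 and 4, so training and family cannot be fully told apart there. ENSRNOG00000034007 differed by -0.19 ± 0.08 with date in the model (adjusted p = 0.122), ENSRNOG00000014096 by -0.063 ± 0.032 (adjusted p = 0.213) and Sgk1 by -0.13 ± 0.10 (adjusted p = 0.419).

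On 6 December the raw levels of ENSRNOG00000034007 did not overlap, with 19.9, 27.0 and 49.7 CPM in the 6 trained males and 56.7, 60.3 and 66.5 CPM in the 3 untrained ones. These 6 trained males were all of family 1 and the 3 untrained ones all of family 12, so training and family cannot be told apart on this date. On the shared female dates the raw levels overlapped. Their medians were 45.7 CPM in trained and 28.8 CPM in untrained rats on 17 December, and 60.4 and 45.0 CPM on 18 December. The raw medians of untrained rats were thus higher on the male date and lower on both female dates. These levels are not adjusted for RNA composition, and 6 December had the lowest mean intergenic percentage of any date (11.9). In the adjusted fit of the females of the shared dates alone, the difference was 0.0074 (trained minus untrained, log2). The part of the RNA composition in the raw differences was not tested.

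In males training is nearly the same split as family, because the 8 males of family 11 and the 5 of family 12 were all untrained. In the males alone ENSRNOG00000034007 was lower in trained rats by 0.56 on the log2 scale (adjusted p = 0.00308) and Sgk1 differed by 0.19 (adjusted p = 0.532), and in the females alone the values were -0.035 (adjusted p = 0.897) and -0.20 (adjusted p = 0.356). The test of the difference between the sexes gave -0.47 ± 0.13 for Sgk1 (females minus males, adjusted p = 0.102) and 0.31 ± 0.10 for ENSRNOG00000034007 (adjusted p = 0.192), where 0.298% of all genes were called. A neuronal marker and the thalamic markers moved with training as well, where 9.07% of all genes were called. Slc17a7 was lower in trained rats by 0.15 ± 0.04, and the thalamic markers Slc17a6 and Tcf7l2, 2 of 2 measured, were higher by 0.41 ± 0.13 and 0.58 ± 0.18 (adjusted p = 0.00393, 0.0403 and 0.0289). Rbfox3, the other of the 2 neuronal markers, differed by -0.030 ± 0.035 (adjusted p = 0.712). None of the 3 oligodendrocyte, 3 astrocyte, 1 microglial, 1 choroid plexus and 2 blood markers measured passed. With date of death in the model, where ENSRNOG00000022523 was called, 0 of the 2 thalamic markers passed (0.25 ± 0.17 and 0.069 ± 0.219), and Slc17a7 was lower by 0.13 ± 0.05 (adjusted p = 0.0619). In that model 1 of 3 astrocyte markers was called, higher in trained rats, where 12.5% of all genes were called. The part of these markers' cell types in the differences of the 4 genes was not tested.

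Of the 4 genes, ENSRNOG00000022523 was called between the sexes. It lay at 50.2, 83.4 and 130 CPM in males (n = 122) and at 35.7, 79.5 and 140.0 CPM in females (n = 123), with wide overlap, and was lower in females by 0.075 on the log2 scale (SE 0.023, 95% interval -0.12 to -0.03, adjusted p = 0.0299, limma-voom), where 9.08% of all genes were called. The difference was 0.0036 ± 0.0147 for ENSRNOG00000014096, -0.057 ± 0.036 for ENSRNOG00000034007 and 0.025 ± 0.047 for Sgk1 (adjusted p = 0.936, 0.41 and 0.847). The call was lost without the intergenic percentage in the model (-0.031, adjusted p = 0.449), with sex as the only covariate (-0.10, adjusted p = 0.393) and in each sequencing batch alone (-0.056, -0.062 and -0.034). The neuronal markers Rbfox3 and Slc17a7, 2 of 2 measured, were also lower in females (-0.10 ± 0.02 and -0.084 ± 0.021), as were 2 of 3 astrocyte and 2 of 2 blood markers, while 2 of 2 thalamic markers were higher and none of the 3 oligodendrocyte markers passed. The identifier of Rbfox3, like those of the astrocyte markers Gfap and Aqp4 and the blood marker Alas2, was paired from a list of sex differences that the study drew from these rats, so their directions are not independent evidence. The part of these cell types in the difference of ENSRNOG00000022523 was not tested. No female died on a date on which a male died. The males were 113 to 123 days old at death and the females 124 to 132. The paper also housed the sexes in separate rooms on different light cycles. Sex thus cannot be told apart from date, age or housing.

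Behavior was the main question of the study. LocoScore counts beam breaks in an unfamiliar enclosure. On the elevated plus maze (EPM), a test of anxiety-like behavior, the distance traveled, the time immobile, the share of time in the open arms and the fecal boli were recorded. The PavCA Index separates rats that approach the lever from rats that approach the food cup. None of the 4 genes was called for any of the 6 measures by limma-voom, and 0.0103% of all genes were called for LocoScore, 0.00515% for the PavCA Index and 0% for the 4 EPM measures, where 728 (distance), 830 (time immobile), 759 (open arms) and 803 (boli) genes had an unadjusted p under 0.05. The edgeR and other alternatives likewise called 0 of the 4 genes for each measure. Of the 24 slopes, 1 had an unadjusted p under 0.05. It was that of Sgk1, which rose by 0.055 ± 0.022 (log2, SE, 95% interval 0.011 to 0.099) for each 10 percentage points of time in the open arms, unadjusted p = 0.014, adjusted p = 1.0 (n = 245). This slope was positive in the males alone (0.057), in the females alone (0.041) and in each sequencing batch (0.046, 0.075 and 0.021), and it was 0.067 with date of death and 0.043 with family in the model. The other 23 slopes lay between -0.81 and 1.18 times their standard error.

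**Figure D2:**
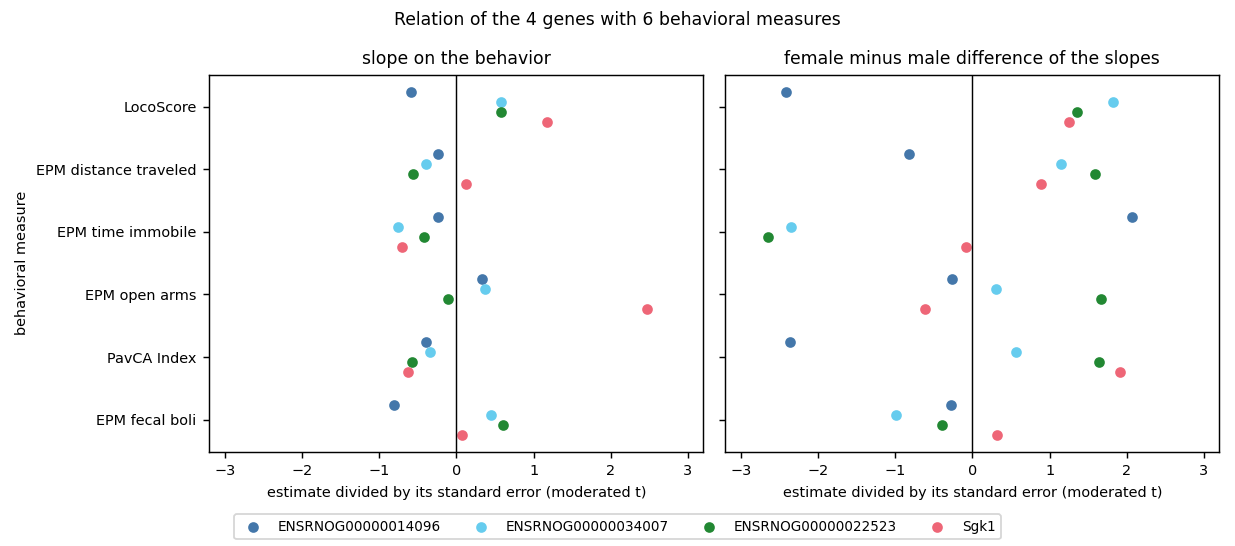
Slope of each gene on each of 6 behavioral measures (left) and the female minus male difference of the slopes (right), each divided by its standard error (horizontal axis, moderated t). None passed the test over all genes, and Sgk1 with time in the open arms, at 2.47, was the farthest from 0 on the left.

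Interactions of sex with each behavior were then tested. For LocoScore 0.329% of all genes were called, for the time immobile and the fecal boli 0.00514% each, and for the distance, the open arms and the PavCA Index 0%. Of the 4 genes, 0 were called for any of the 6. For the time immobile 3 of the 4 had an unadjusted p under 0.05, as did 2946 of all 19448 genes. Per 10 s of immobility the slope in females exceeded that in males by -0.028 ± 0.011 for ENSRNOG00000022523 (unadjusted p = 0.00874, adjusted p = 0.251), by -0.040 ± 0.017 for ENSRNOG00000034007 (adjusted p = 0.267) and by 0.014 ± 0.007 for ENSRNOG00000014096 (adjusted p = 0.31). ENSRNOG00000014096 also had an unadjusted p under 0.05 for LocoScore (-0.012 ± 0.005 per 100 beam breaks, unadjusted p = 0.0167, adjusted p = 0.194) and for the PavCA Index (-0.076 ± 0.032 per index unit, unadjusted p = 0.0193, adjusted p = 0.581). For Sgk1 the difference for the time immobile was -0.0019 ± 0.0220 (adjusted p = 0.98). Right and left hippocampi did not pass the test for any of the 4 genes, with differences from -0.018 to 0.030 (log2, right minus left) and 0% of all genes called (1048 at an unadjusted p under 0.05).

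Family was tested with 11 terms, and Sgk1 and ENSRNOG00000034007 passed, 2 of the 4, where 56.3% of all genes did. Median Sgk1 ran from 63.2 CPM in family 5 (n = 19, range 40.4 to 105) to 80.9 CPM in family 10 (n = 15, range 42.9 to 121), and all 12 families overlapped (F = 3.1, adjusted p = 0.00243). Median ENSRNOG00000034007 ran from 37.4 CPM in family 12 (n = 13, range 19.3 to 66.5) to 67.9 CPM in family 2 (n = 20, range 23.6 to 90.2), with F = 2.37 and an adjusted p of 0.0207. These medians are not adjusted, whereas the test is. After adjustment family 2 lay near 0 (-0.015 in males and 0.0071 in females) and the males of family 12 had the highest mean of any family and sex, so the order of the raw medians did not carry over. Adjusted p was 0.16 for ENSRNOG00000014096 and 0.161 for ENSRNOG00000022523. The latter was called under 9 of 25 alternatives, among them the males alone (adjusted p = 0.0153), date of death added (0.0985) and the intergenic percentage left out (0.0122). With date of death in the model both calls held (adjusted p = 0.00432 for Sgk1 and 0.0729 for ENSRNOG00000034007). The call for ENSRNOG00000034007 was lost without family 1 (adjusted p = 0.11) or family 7 (adjusted p = 0.133).

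The family tests differed between the sexes. In the males alone adjusted p was 2.9e-05 for Sgk1 and 0.000119 for ENSRNOG00000034007, and in the females alone 0.358 and 0.773. An interaction of sex with family, added after these values were seen, was called for ENSRNOG00000034007 (F = 3.45, adjusted p = 0.00637) and not for Sgk1 (F = 1.90, adjusted p = 0.157), ENSRNOG00000014096 (adjusted p = 0.262) or ENSRNOG00000022523 (adjusted p = 0.587), where 20.4% of all genes were called. In ENSRNOG00000034007 the 5 males of family 12, all untrained and dead on 5 or 6 December, lay 0.52 ± 0.31 above the adjusted mean (log2, SD), and the 8 females of that family lay at -0.088 ± 0.318. In Sgk1 the same males lay at -0.26 ± 0.14 and the females at 0.34 ± 0.42, and the 9 males of family 6 lay at 0.38 ± 0.42 against 0.011 ± 0.167 in its 10 females.

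A family here is an intercross family, which can hold several litters. Males and females of a family died on different dates, so the family means of the sexes were compared. Over the 12 families no relation of the means passed the test for any gene, and with 12 points only a strong one could. The means are adjusted for training, which goes with family in the males of families 11 and 12. Pearson's r was -0.0205 for Sgk1 (rho = -0.00699), -0.139 for ENSRNOG00000034007 (rho = 0.147), 0.151 for ENSRNOG00000022523 (rho = 0.105) and -0.0657 for ENSRNOG00000014096 (rho = -0.0699). By permutation test (two-sided, 100000 resamples) the p-values of r were 0.949, 0.683, 0.635 and 0.839, all 0.949 after adjustment over the 4 genes, and those of rho were 0.991, 0.651, 0.748 and 0.835. Without the 2 families farthest from the median in males r was -0.086, 0.363, -0.0881 and 0.323 in the same order of genes.

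**Figure D3:**
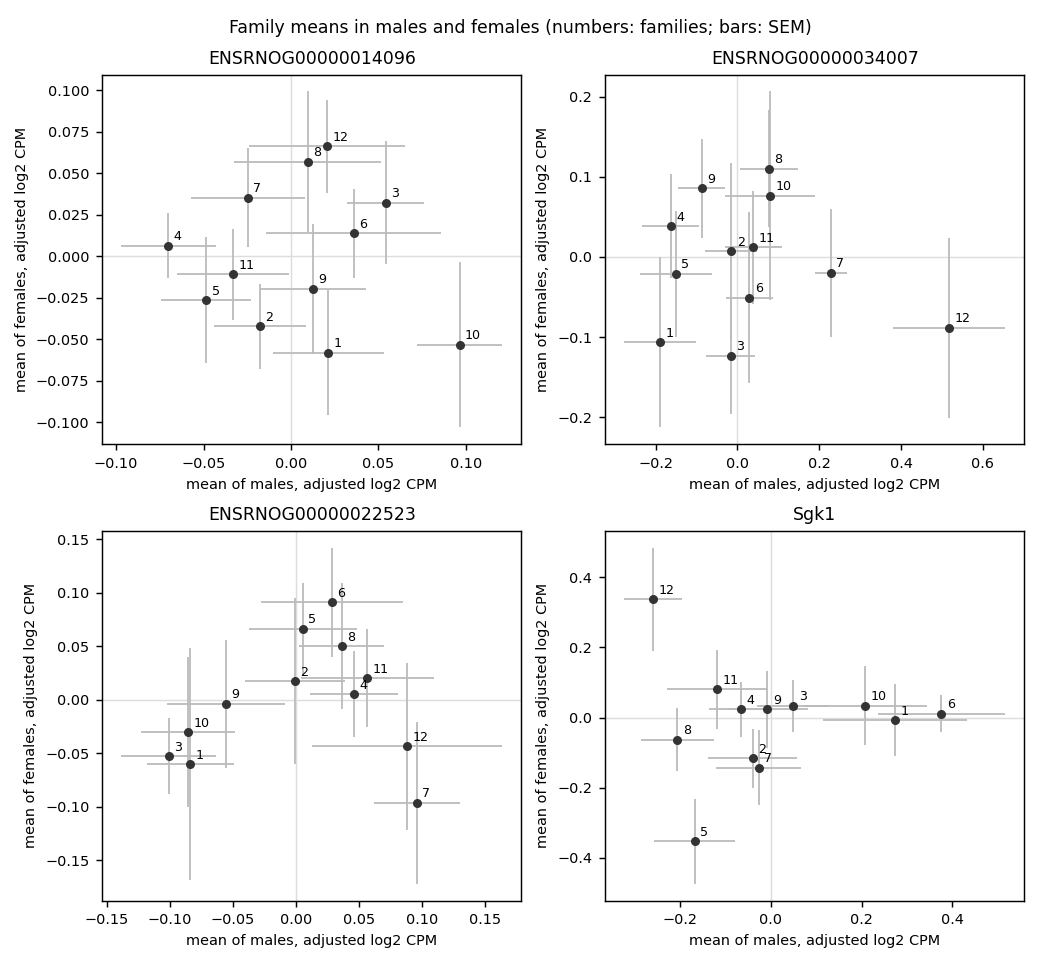
Mean adjusted log2 CPM of the males (horizontal axis) and females (vertical axis) of each of 12 families, with SEM bars and family numbers. No relation of the family means of the sexes passed the test, and the males of family 12 stood apart in ENSRNOG00000034007, at 0.52.

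Whether the 4 genes varied together was asked next. Without covariates all 6 pairs were positively correlated, and ENSRNOG00000034007 and ENSRNOG00000022523 most (r = 0.848). After adjustment for the covariates 3 pairs remained past the threshold of 0.05. ENSRNOG00000034007 and ENSRNOG00000022523 had r = 0.391 (rho = 0.357, permutation p = 1e-05 for each, adjusted p = 6e-05 over the 6 pairs, n = 245), with r = 0.349 without the 2 farthest rats and 0.367, 0.365 and 0.46 in the 3 sequencing batches. It was positive in both sexes, in each sequencing batch and on 7 of 8 dates with at least 6 rats, the exception being 13 December (r = -0.441, 9 rats, exact permutation, adjusted p = 0.768), where r was 0.463 without the 2 farthest rats. ENSRNOG00000014096 and ENSRNOG00000022523 were negatively correlated (r = -0.197, rho = -0.192, permutation p = 0.00198 and 0.00232, adjusted p = 0.00594), with r = -0.204 without the 2 farthest rats and -0.256, -0.175 and -0.123 in the batches, and this sign rested on the covariates, since r was 0.271 without them. ENSRNOG00000022523 and Sgk1, both known as corticosteroid-induced if the listing holds, had r = 0.173 (rho = 0.146, permutation p = 0.00652 and 0.0218, adjusted p = 0.013), with r = 0.144 and an adjusted p of 0.0512 without the 2 farthest rats, so that the call was narrowly lost at a similar r. In the batches it was 0.242, 0.0141 and 0.281. It was 0.021 in the males alone and 0.291 in the females alone, and with date of death and family in the model it was 0.259. Among 13748 other genes, ENSRNOG00000022523 ranked 3397 from the top in likeness (r) to ENSRNOG00000034007, 13183 to ENSRNOG00000014096 and 776 to Sgk1. With each gene as the predictor of all others, limma-voom called 62.3% of genes for ENSRNOG00000034007 and 45.1% for ENSRNOG00000022523. It called 18.8% for ENSRNOG00000014096 and 6.79% for Sgk1.

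The pairs of each receptor with the other genes were otherwise weak. ENSRNOG00000014096 and ENSRNOG00000034007 had r = 0.0469 (rho = 0.0711, permutation p = 0.465 and 0.268), ENSRNOG00000014096 and Sgk1 had r = 0.0176 (rho = 0.00135, permutation p = 0.784 and 0.984), and ENSRNOG00000034007 and Sgk1 had r = -0.0735 (rho = -0.0661, permutation p = 0.254 and 0.304). Without the 2 farthest rats these were 0.0396, -0.011 and -0.0903. None of these 3 pairs passed the test.

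**Figure D4:**
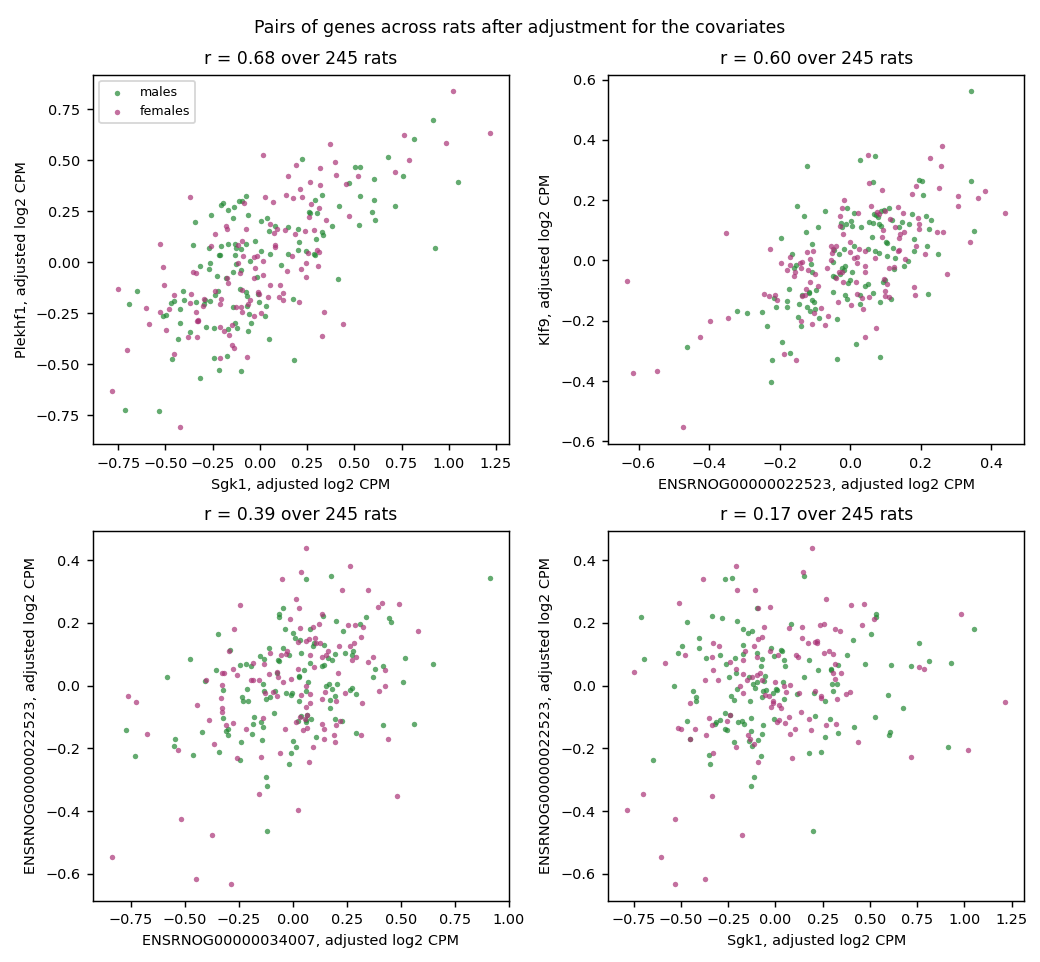
Adjusted log2 CPM of 4 pairs of genes in each of 245 rats (both axes), with green points for males and purple points for females. Sgk1 and Plekhf1 were the closest pair (r = 0.68), and Sgk1 and ENSRNOG00000022523 the loosest (r = 0.17).

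The genes most like each of the 4 were ranked by r of adjusted log2 CPM over the 245 rats, among 13748 other genes with a mean of at least 1 CPM. For Sgk1 they were ENSRNOG00000009565 (r = 0.729), ENSRNOG00000007390 (0.727) and ENSRNOG00000058186 (0.683), and those least like it were ENSRNOG00000004459 (-0.375) and ENSRNOG00000008026 (-0.363). For ENSRNOG00000022523 the highest were ENSRNOG00000006400 (0.716), ENSRNOG00000052391 (0.705) and ENSRNOG00000021256 (0.688), and the lowest ENSRNOG00000016810 (-0.513) and ENSRNOG00000019036 (-0.509). For ENSRNOG00000034007 the highest were ENSRNOG00000024730 (0.891), ENSRNOG00000018712 (0.884) and Grm5 (0.883), a metabotropic glutamate receptor, and the lowest ENSRNOG00000060728 (-0.729) and ENSRNOG00000013000 (-0.724). For ENSRNOG00000014096 the highest were ENSRNOG00000013481 (0.574), ENSRNOG00000012751 (0.515) and ENSRNOG00000006975 (0.512), and the lowest ENSRNOG00000028670 (-0.536) and ENSRNOG00000043286 (-0.439). Genes without a symbol here are those that the annotation used does not pair with a name.

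Other genes of the pathway were read from 3 lists: corticosteroid target genes, of which 5 of 21 could be paired with an identifier, receptor chaperones and cofactors, 2 of 10, and ligand supply and the corticotropin-releasing hormone (CRH) system, 2 of 6. With Sgk1 as the predictor 4 of the 5 target genes rose (limma-voom), where 6.79% of all genes were called in either direction. Per log2 unit of Sgk1, Plekhf1, an endosomal protein, rose by 0.55 ± 0.04 (SE, adjusted p = 9.6e-32), Sult1a1, a phenol sulfotransferase, by 0.25 ± 0.04, Arrdc3, an arrestin-domain protein, by 0.18 ± 0.03, and Klf9, a transcription factor, by 0.14 ± 0.03. Plekhf1 ranked 4 of 13748 in likeness to Sgk1 (r = 0.68), Sult1a1 37, Arrdc3 38 and Klf9 71. The r of Sgk1 and Plekhf1 was 0.666 in males and 0.694 in females, from 0.617 to 0.708 in the sequencing batches and from 0.384 to 0.813 on the 8 dates, and it was 0.647 with date of death and family in the model. On the same dates r with Sgk1 ran from 0.127 to 0.594 for Sult1a1 and from 0.221 to 0.806 for Arrdc3. For Klf9 it ran from -0.327 to 0.541. None of the chaperones or CRH genes was called with Sgk1. Among cell type markers, Mag and Car2, 2 of 3 measured oligodendrocyte markers, rose with Sgk1 (0.24 ± 0.05 and 0.15 ± 0.04, adjusted p = 0.00172 and 0.0381).

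**Figure D5:**
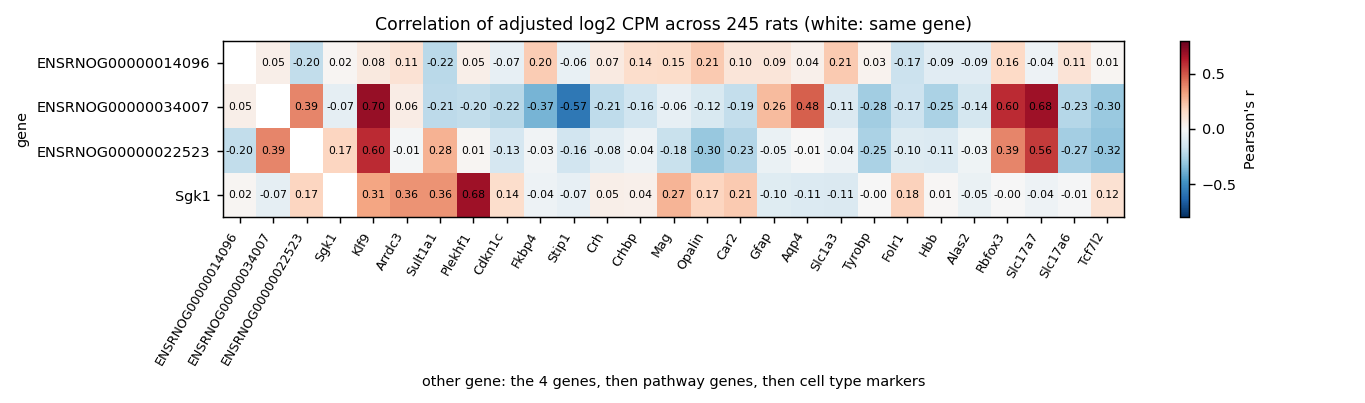
Pearson's r of adjusted log2 CPM across 245 rats between each of the 4 genes (rows) and the same genes, 9 pathway genes and 14 cell type markers (columns), with the value in each cell. The warmest cells are Klf9 with ENSRNOG00000034007 (0.70), Plekhf1 with Sgk1 (0.68) and the neuronal marker Slc17a7 with ENSRNOG00000034007 (0.68).

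With ENSRNOG00000022523 as the predictor Klf9 and Sult1a1 rose (0.56 ± 0.05 and 0.41 ± 0.10 per log2 unit, adjusted p = 3.7e-21 and 0.00024), 2 of the 5 target genes, where 45.1% of all genes were called. Klf9 ranked 8 of 13748 in likeness (r = 0.598, from 0.518 to 0.787 on the 8 dates). For Sult1a1 r was 0.278, with 0.108 in males, 0.371 in females and from -0.430 to 0.704 on the dates. Plekhf1, the target closest to Sgk1, had r = 0.0128 with ENSRNOG00000022523. Both neuronal markers measured rose as well, Slc17a7 by 0.52 ± 0.05 and Rbfox3 by 0.34 ± 0.05, while 3 of 3 oligodendrocyte markers and 2 of 2 thalamic markers fell. Slc17a7 ranked 21 of 13748 in likeness (r = 0.559) and Rbfox3 ranked 549. Of the chaperones Stip1, a co-chaperone that passes receptors between heat shock proteins, fell by 0.14 ± 0.06 (adjusted p = 0.0466).

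With ENSRNOG00000034007 as the predictor 62.3% of all genes were called, and 8 of the 9 pathway genes were among them. Klf9 rose by 0.40 ± 0.03 per log2 unit (r = 0.699, from -0.142 to 0.957 on the 8 dates) and ranked 819 of 13748 in likeness. Stip1 fell by 0.31 ± 0.03 and Fkbp4, a co-chaperone that favors receptor transport, fell by 0.16 ± 0.03. Sult1a1, Plekhf1, Cdkn1c, a cyclin-dependent kinase inhibitor, Crh and its binding protein Crhbp also fell. The neuronal markers Rbfox3 and Slc17a7 rose by 0.33 ± 0.03 and 0.39 ± 0.03, and Slc17a7 ranked 992. Markers of every other class were called too. Of the astrocyte markers 2 of 3 rose. In the other classes 2 of 2 thalamic, 2 of 2 blood, 1 of 3 oligodendrocyte, 1 of 1 microglial and 1 of 1 choroid plexus markers fell. With ENSRNOG00000014096 as the predictor 18.8% of all genes were called, and of the pathway genes Fkbp4 rose by 0.21 ± 0.07 and Sult1a1 fell by 0.51 ± 0.15 per log2 unit (adjusted p = 0.0194 and 0.011). The share of neurons or of neighboring tissue in a punch was not measured, and its part in these relations was not tested.

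Across the conditions the pathway genes did not follow the 4 genes throughout. Between the sexes, where 9.08% of all genes were called, Arrdc3, Fkbp4 and Stip1 were higher in females, by 0.12 ± 0.02, 0.086 ± 0.015 and 0.07 ± 0.02 (adjusted p = 0.000272, 2.1e-05 and 0.0204), and ENSRNOG00000022523 was lower. The identifier of Fkbp4 came from the same list of sex differences, so its direction is not independent evidence either. In trained rats Stip1 and Fkbp4 were higher by 0.17 ± 0.03 and 0.079 ± 0.026 (adjusted p = 0.000931 and 0.0547), 2 of 2 chaperones measured, where 9.07% of all genes were called. With date of death in the model they were higher by 0.22 ± 0.04 and 0.11 ± 0.03, where 12.5% of all genes were called. In both models 0 of the 5 target genes passed. Between dates of death Klf9, Arrdc3 and Plekhf1 passed beside Sgk1, 3 of the 5 targets (adjusted p = 0.0901, 0.00978 and 0.0664), together with Fkbp4 and Crhbp, which makes 5 of the 9 pathway genes where 39.7% of all genes were called. Between families Klf9, Plekhf1 and Cdkn1c passed, as did Stip1, Crh and Crhbp, 6 of the 9 where 56.3% of all genes were called, a share near that background. For the 6 behaviors 0 of the 9 genes were called, a count near the background. Of all genes 0.0103% were called for LocoScore, 0.00515% for the PavCA Index and 0% for the EPM measures.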

How the data were processed

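Hippocampal polyA RNA-Seq libraries of F2 rats, 1 per rat, were analyzed. The deposited values are raw counts per gene. The authors aligned the reads to Rnor6 with STAR 2.7.3a, counting uniquely mapped, stranded reads over Ensembl 103 genes with Subread 2.0.0, so reads shared by near-identical genes were not counted. All 250 columns were matched to samples by title, and none was left unmatched. The 4 genes and the gene lists were chosen with earlier results of these data known.

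Genes with at least 1 read in 25% of the 245 rats were kept, scaled by TMM (edgeR 4.0.16) and tested with limma-voom (limma 3.58.1, R 4.3.3), with Benjamini-Hochberg adjustment over all genes tested at an FDR of 0.10. Covariates followed the study's model: sex, ribosomal and intergenic percentages, dissector, PavCA experience and sequencing batch, and for sex LocoScore. The intergenic percentage was recomputed from the other read fractions in the labels, and the 3 batches (95, 94 and 56 rats) were read from breaks in the library numbers. A single EPM distance exceeded 5000 cm, and that rat is absent from the models of distance. Log2 CPM for correlations used a prior count of 0.5. Correlations and permutation tests were computed in Python 3.11.15 with SciPy 1.17.1. The rats are separate animals, yet those of a family are related. Family was a term only in the family tests and where it is said to be added, and the permutations treated rats as independent. The models were tested on simulated counts. Genes named beside the 4 were those of the lists, and for each of the 4 the 3 most and 2 least correlated genes. Symbols came from the study's annotation, where 1858 identifiers are paired, since 0 identifiers matched the reference table, and a gene of a list with no pair was not analysed here. Alternatives were other scaling, filters and tests (edgeR quasi-likelihood, DESeq2 1.42.0), other covariates and subsets of rats. Added after the data were seen were the contrasts of the large dates, the interactions of sex with family and with training, and the first principal component as a covariate.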

Additional observations from a re-analysis of the deposited data

Results flagged for a closer look

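In the 9 females that died on 13 December, the lowest rat stood apart from the others in 3 of the 4 genes by Dixon's test on log2 CPM. Its values were 6.397 for ENSRNOG00000014096 (next lowest 6.54), 4.52 for ENSRNOG00000034007 (next lowest 5.53) and 5.22 for ENSRNOG00000022523 (next lowest 6.30). It was the same rat in all 3 (female replicate 122), and its library had 2.88% ribosomal reads against 0.83% to 1.07% in the other 8, and 10.8% intergenic reads against 13.2% to 14.5%. In Sgk1 it was not the lowest rat of the date. Chance alone marks about 1 in 20 such groups, and 12 were examined, the groups of 5, 6 and 13 December for each gene. The part of the RNA composition in these values was not tested.

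The family differences of ENSRNOG00000034007 were not alike in the sexes by the interaction of sex with family (adjusted p = 0.00637). The interaction was added after the fits within each sex were seen, and 20.4% of all genes passed it. Sex, date of death and, in families 11 and 12, training go together here and cannot be told apart.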

How the results depend on the processing

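Of 667 values recomputed under an alternative, 518 were labelled unchanged, 44 lost and 30 gained a call, 42 changed sign and 33 counts moved by over 1.5 times. Unchanged means the same direction and side of the threshold for an estimate, the same side for an F test, and within 1.5 times for a count. The unchanged values include the counts of called genes for the behaviors and for hippocampal side, which were 0 under every alternative. The causes were not tested, except that subsets hold fewer rats. No paired analysis was possible because the replicate numbers only name rats in accession order. Sex with date of death added gave no value, since dates are nested in sex. Depth did not limit these genes, which held at least 310 reads per library.

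For sex, 0 of the 4 genes were called with sex as the only covariate, without the intergenic percentage and in each batch. ENSRNOG00000022523 was then at -0.10, -0.031, -0.056, -0.062 and -0.034. Signs turned for ENSRNOG00000014096 in batch 1 (-0.0046), for ENSRNOG00000034007 without the intergenic percentage (0.015) and in batch 1 (0.034), and for Sgk1 in batches 1 and 2 (-0.032 and -0.085). For training, 1 gene was called by edgeR, with DESeq2 size factors, with the CPM filter, with all 250 libraries, with date added, in males and in batches 1 and 3, and 2 with sex only and by the DESeq2 Wald test. Signs turned for ENSRNOG00000014096 in batch 1 (0.0083), for ENSRNOG00000034007 with sex only (0.12) and in batch 1 (0.23), for ENSRNOG00000022523 in males (-0.030) and batch 3 (-0.028), and for Sgk1 in males (0.19). With date in the model, 0 were called in the females of the 2 shared dates and with family added (ENSRNOG00000022523 0.19 and 0.21), and ENSRNOG00000034007 was 0.0074 in those females. Leaving out each rat in turn gave 0.10 to 0.17 for ENSRNOG00000022523, and -0.082 to -0.068 for its sex difference. The unadjusted p ranged from 0.000179 to 0.00219 for Sgk1 by date, from 0.00024 to 0.0019 for Sgk1 by family and from 0.0035 to 0.0165 for ENSRNOG00000034007 by family.

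For date of death, 2 genes were called with all 250 libraries, in males and without 17 December, and 0 in females, in each batch and without 18 December. The adjusted p of Sgk1 was 0.102 with sex only, 0.109 in females, 0.419, 0.176 and 0.347 in the batches and 0.295 without 18 December. For family, 0 were called in females and batch 3, and 1 in batch 1 and without family 1. The adjusted p of ENSRNOG00000034007 was 0.773 in females, 0.531, 0.147 and 0.681 in the batches, and 0.11 and 0.133 without family 1 or 7, and that of Sgk1 was 0.358 in females and 0.665 in batch 3. ENSRNOG00000022523 gained a family call under 9 of 25 alternatives. The sex by immobility slope of Sgk1 was 0.0012 with the CPM filter.

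Of 12 ordered pairs, 6 were called, 12 without covariates or with sex only, and 2 and 3 in batches 2 and 3. The main fits called 18.8% of all genes with ENSRNOG00000014096 as the predictor and 62.3% with ENSRNOG00000034007. They called 45.1% with ENSRNOG00000022523 and 6.79% with Sgk1. For ENSRNOG00000014096 and ENSRNOG00000034007 r was -0.0794 with all libraries, -0.062 with DESeq2 size factors, -0.0245 in females, -0.14 in batch 3, and -0.256, -0.256 and -0.127 on 5, 6 and 17 December. For ENSRNOG00000014096 and ENSRNOG00000022523 it was 0.271 without covariates, 0.28 with sex only, -0.159 in females, -0.175 and -0.123 in batches 2 and 3, and 0.0757, -0.178, -0.354, -0.361, -0.1998, -0.324, -0.188 and -0.118 on the 8 dates. For ENSRNOG00000014096 and Sgk1 it was -0.011 without the 2 farthest rats, -0.0364 with date and family, -0.0034 in males, -0.152 in batch 3, and -0.0262, -0.0989 and -0.16 on 6, 10 and 17 December. For ENSRNOG00000034007 and ENSRNOG00000022523 it was 0.354, 0.704, 0.552, 0.263 and -0.441 on 5, 6, 9, 10 and 13 December. For ENSRNOG00000034007 and Sgk1 it was 0.247 without covariates, 0.251 with sex only, and 0.369 and 0.095 on 9 and 10 December. For ENSRNOG00000022523 and Sgk1 it was 0.144 without the 2 farthest rats, 0.021 in males, 0.0141 and 0.281 in batches 2 and 3, and 0.0493, -0.173, -0.0031, -0.0206, 0.132, 0.0523 and 0.204 on 5, 6, 9, 10, 11, 13 and 18 December. The r of family means was 0.0595 for ENSRNOG00000014096 with date, and without the 2 farthest families 0.323, 0.363 and -0.0881 for ENSRNOG00000014096, ENSRNOG00000034007 and ENSRNOG00000022523.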
